A study of Homo sapiens with 20 samples.

Results

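HepaRG cells that had been kept in DMSO until day 30 were compared with HepaRG cells from which DMSO had been withdrawn for 4 days, across all genes of a one-color Agilent array. The comparison uses 8 of the 20 arrays of the series, namely the 4 arrays of D34 ± DMSO against the 4 arrays of D30 + DMSO, and the members were taken from the labels of the samples and not from any measured value. HepaRG cells, a line from a human liver tumor, start as progenitors and mature into a mixture of hepatocyte-like and biliary-like cells. All conditions share the William's E medium with serum, insulin and hydrocortisone. For D30 + DMSO, the cells grew for 2 weeks without DMSO and for 2 more weeks with 2% DMSO, and for D34 ± DMSO the same culture was followed by 4 days without DMSO. The other conditions, D4, D15 and D30 − DMSO, are cells never exposed to DMSO, and their levels are given beside some results. There was no culture kept in DMSO until day 34, so the withdrawal of DMSO and 4 more days of culture cannot be told apart. The 4 arrays of a condition are independent biological replicates per the methods, all of 1 cell line.

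DMSO is part of the usual HepaRG protocol, in which hepatocyte-like cells kept in it show high levels of drug-metabolising enzymes. In dividing cells, E2F factors drive the genes of DNA replication, and a later wave of genes, which depends on MYB factors and FOXM1, builds the mitotic spindle. In hepatocytes, the nuclear receptors NR1I2 (PXR) and NR1I3 (CAR) act on the genes of cytochrome P450 enzymes, among them CYP3A4.

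On each array, 58717 non-control spots report 42405 probes. Levels are log2 values of the processed signal after each array was scaled to its 75th percentile, so 0 is the 75th percentile of the array and 1 unit is a factor of 2. Levels of different probes are not comparable with each other, and all comparisons below are of the same probe between conditions. A probe was used if it was well above background, as judged by the scanner software, on all 4 arrays of at least 1 condition, and 22221 genes were tested with limma over the 20 arrays. A gene was called if its difference exceeded 2-fold and its p, adjusted after Benjamini and Hochberg, was below 0.005. The standard errors (SE) and adjusted p-values below are those of limma with n = 4 arrays per condition. Where a probe was well above background on no array of the lower condition, the fold is a bound ("at least"), taken against the weakest signal that an array could still tell from its background. The arrays lie on 4 slides scanned in 2 sessions. D30 + DMSO replicates 1 and 2 and D34 ± DMSO replicates 1 and 3 lie on slide 3, D30 + DMSO replicates 3 and 4 and D34 ± DMSO replicate 4 on slide 4, which was the only one of the second session, and D34 ± DMSO replicate 2 on slide 1. Differences within slide 3 and within slide 4 were therefore computed as well.

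After DMSO withdrawal, most of the listed cell cycle genes were called higher, and some of the listed drug-metabolising enzymes were called lower. limma called 1090 genes higher (4.91% of the genes tested) and 464 lower (2.09%) at D34 ± DMSO than at D30 + DMSO. Of the 172 tested genes of DNA replication, mitosis and cell cycle control, 124 were called higher and 0 lower by limma. Of the 135 tested genes of cytochrome P450 enzymes, other phase I enzymes and conjugating enzymes, 27 were called lower, 9 higher and 99 neither. The median fitted fold was 3.48 among the genes called higher and 2.46 among those called lower. With the 143 and 4 genes that were well above background on no array of the lower condition set to their bounds, the medians were 3.30 and 2.46, and 119 genes rose and 16 fell by more than 8-fold. This moved the median log2 difference of the lists below by less than 0.01, apart from the matrix proteases and inhibitors (0.35 and 0.30 at the bounds). The genes called higher were mostly dim in DMSO. Their median level was -3.16 at D30 + DMSO and -1.12 at D34 ± DMSO, and 143 of them were well above background on no array of D30 + DMSO. The genes called lower had a median level of 0.70 at D30 + DMSO and of -0.77 at D34 ± DMSO, and 4 of them were well above background on no array of D34 ± DMSO. The median log2 difference over all genes tested was -0.07.

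**Figure D1:**
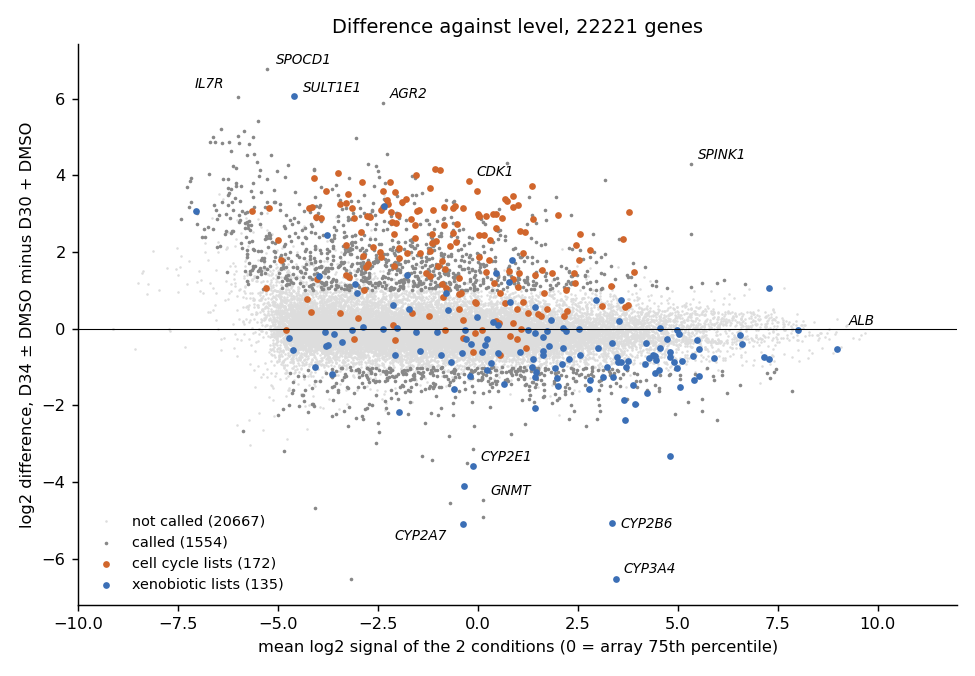
Difference between D34 ± DMSO and D30 + DMSO (vertical axis, log2) against the mean level of both conditions (horizontal axis, log2, 0 is the 75th percentile of the array) for the 22221 genes tested. Dark grey points are the 1554 called genes, orange points the 172 genes of the cell cycle lists and blue points the 135 genes of the xenobiotic lists. Most orange points lie above 0, CYP3A4 lies lowest of the blue points, and ALB lies close to 0.

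Differences were also computed within each of the slides that hold both conditions, from arrays that had entered the fit. The genes were called on these same arrays, so agreement in direction was largely fixed beforehand and is no independent support. Of the 1090 genes called higher, 1090 were also higher within slide 3 and 1090 within slide 4, with a median log2 difference of 1.62 and 2.08. Of the 464 genes called lower, 464 were lower within each slide, with a median of -1.17 on slide 3 and -1.55 on slide 4. With the slide as a block, limma called 1226 genes higher and 629 lower, 1068 and 436 of them among the genes above. Replicate arrays of a condition correlated across genes with r between 0.955 and 0.992, and arrays of different conditions with r between 0.926 and 0.973. Of the 244 called genes with more than 1 probe, 129 had all probes called the same way and 0 had a probe called the other way.

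The labelled cell type was checked against its markers. ALB, TTR, SERPINA1 and APOA1, plasma proteins made by hepatocytes, and KRT7 and KRT19, keratins of bile duct cells, were well above background on all 8 arrays, as was HNF4A, a hepatocyte transcription factor. EPCAM, a surface protein of biliary progenitors, was well above background on no array. Of the markers of blood and vessel cells, PTPRC, CD68 and CDH5 were well above background on all 8 arrays, CD3E and VWF on 6 and 5 of them and PECAM1 on 5, although the cells are a line. PTPRC, CD68 and CDH5 were not called and the other 3 were not tested, with PTPRC at -3.18 ± 0.77 at D30 + DMSO and -2.95 ± 0.72 at D34 ± DMSO. A list of 24 such markers had 15 tested members, of which 2, TEK and MARCO, were called higher and 0 lower by limma. The share called higher was 13.3%, against 4.91% of all genes tested. TEK was tested only because its probe passed the filter at D34 ± DMSO, where it is high. The call of MARCO was lost when any 1 of 7 of the 8 arrays was left out, with an adjusted p of up to 0.011. The mean level of the list, relative to D30 + DMSO, lay between -0.34 and 0.27 on the arrays of D30 + DMSO and between 0.08 and 0.60 on those of D34 ± DMSO, and its part in the other results was not tested. In such bulk RNA, fewer cells of a type and less RNA per cell cannot be told apart.

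Genes of mitosis showed the most uniform change of the lists examined here. Of 76 tested genes of the spindle, kinetochore and condensin, limma called 70 higher and 0 lower, with a median log2 difference of 2.94. CDK1 (NM_001786), the kinase that starts mitosis, stood at -2.98, -1.76, -1.83 and -2.03 on replicates 1 to 4 of D30 + DMSO and at 1.63, 1.49, 1.89 and 1.78 on those of D34 ± DMSO. All 4 arrays without DMSO lay more than 3 units above the highest array with DMSO (log2 difference 3.85, SE 0.27, adjusted p = 2.24e-08, 14.4-fold). D30 + DMSO replicate 1 was the lowest array for CDK1, and the mean of the mitotic list was also lowest there, at -0.69 relative to the condition mean, against 0.21 to 0.25 on the other arrays with DMSO. The 4 arrays of D34 ± DMSO had list means between 2.34 and 3.35, those of D30 − DMSO between 0.05 and 0.70, and those of the dividing progenitors at D4 between 2.40 and 2.85.

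CEP55 (NM_018131), a midbody protein of the last step of cell division, rose from -3.16 ± 0.53 to 1.02 ± 0.40 (SD, n = 4; log2 difference 4.18, SE 0.28, adjusted p = 1.3e-08), and both of its probes were called. SPC25 (NM_020675), a subunit of the NDC80 complex of the kinetochore, rose by 4.13 (SE 0.29, adjusted p = 2.42e-08), and NDC80 itself by 3.38. NCAPG (NM_022346), a condensin subunit, rose by 3.92 (SE 0.31, adjusted p = 6.68e-08), from a level at which 1 of 4 arrays was well above background. Among the enzymes of mitosis, the kinases AURKA and AURKB rose by 2.73 and 2.93, PLK1 by 3.14, TTK by 3.52 and the topoisomerase TOP2A by 3.83. PLK4 (NM_014264), the kinase that starts the doubling of centrioles, was well above background on no array of D30 + DMSO or D30 − DMSO and on 4 of 4 at D34 ± DMSO, at least 7.99-fold above D30 + DMSO. The cyclin that pairs with CDK1, CCNB1, rose by 2.62, while CCNB2 was not called, with a difference of 1.07 (adjusted p = 0.0637). The other tested genes of the list that were not called are CENPI (3.06, adjusted p = 0.0124), NCAPD3, CENPN, BUB3 and NCAPH, all with differences above 0.

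Promoter windows of some of these genes are shown because the called mitotic and replication genes differ in how often the CHR and E2F motifs lie before their starts. Each line holds the 200 bases before a transcription start in RefSeq (GRCh38.p14), 5′ to 3′ on the strand of the gene, with matches of the CHR motif, the CCAAT box and the E2F motifs on either strand in capitals. In CDK1, chr10:60778131-60778330 on the plus strand (the first of the windows listed for it), and in CEP55, chr10:93496412-93496611 on the plus strand, the capitals mark 1 CHR motif TTTGAA and 1 CCAAT box each. In E2F1, chr20:33686386-33686585 on the minus strand, and in MCM7, chr7:100101398-100101597 on the minus strand (the first of its windows), they mark E2F motifs and CCAAT boxes. E2F1 is in the list of cyclins and E2F factors and MCM7 in that of replication.
CDK1: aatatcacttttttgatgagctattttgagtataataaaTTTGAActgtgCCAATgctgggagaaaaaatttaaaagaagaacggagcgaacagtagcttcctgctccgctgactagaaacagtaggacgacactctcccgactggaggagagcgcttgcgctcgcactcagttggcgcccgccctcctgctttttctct
CEP55: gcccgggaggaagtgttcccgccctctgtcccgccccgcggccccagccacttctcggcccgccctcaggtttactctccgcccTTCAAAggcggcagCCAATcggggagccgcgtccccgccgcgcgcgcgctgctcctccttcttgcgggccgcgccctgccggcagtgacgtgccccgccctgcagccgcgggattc
E2F1: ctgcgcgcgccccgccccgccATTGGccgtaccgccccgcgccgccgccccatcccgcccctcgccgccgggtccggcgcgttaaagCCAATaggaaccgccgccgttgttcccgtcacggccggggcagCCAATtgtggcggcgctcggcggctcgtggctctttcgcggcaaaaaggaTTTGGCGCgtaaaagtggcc
MCM7: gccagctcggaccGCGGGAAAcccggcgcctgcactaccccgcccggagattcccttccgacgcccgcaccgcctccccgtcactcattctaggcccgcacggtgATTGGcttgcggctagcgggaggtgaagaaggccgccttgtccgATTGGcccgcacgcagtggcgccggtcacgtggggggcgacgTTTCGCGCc

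Motifs were counted in the 250 bases before the start, 1 window per gene, on both strands apart from the ER6 repeat given further below. Matches of different motifs can overlap. The CHR motif TTTGAA lay before 30 of 63 called mitotic genes with a window (47.6%) and before 1 of 30 called replication genes (3.33%), where 9.34% of the 11337 tested genes with a window and 13.6% of all 27305 windows hold it. The E2F motifs TTTGGCGC, TTTCCCGC and TTTCGCGC lay before 11 of the 30 replication genes (36.7%) and 5 of the 63 mitotic genes (7.94%), against 3.74% of tested genes and 2.38% of all windows. A CCAAT box was found before 71.4% of the mitotic genes and 50.0% of the replication genes, against 35.0% of tested genes and 33.0% of all windows. The GC-rich SP1 motif GGGCGG was at 74.6%, 70%, 63.3% and 42.3% in the same sets. Of all 690 genes called higher that have a window, 15.7% held TTTGAA and 6.52% an E2F motif, and outside the cell cycle lists the shares were 13% and 4.27%. These shares are a description of letters in fixed windows, with no test. Mitotic and replication genes that were not called were not counted, so the motifs cannot be tied to the rise.

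Genes of DNA replication were higher too, with a smaller median difference than those of mitosis. Of 56 tested genes of licensing and the replication fork, 36 were called higher and 0 lower by limma, with a median log2 difference of 1.48. CDC45 (NM_003504), part of the replicative helicase, stood at -1.94, -1.56, -1.88 and -1.87 on the arrays of D30 + DMSO and at 1.17, 2.22, 2.29 and 1.42 on those of D34 ± DMSO, with no overlap (log2 difference 3.59, SE 0.23, adjusted p = 1.05e-08). The licensing factor CDT1 (NM_030928) rose by 3.18 (SE 0.22, adjusted p = 2.16e-08). RRM2 (NM_001034), a subunit of the enzyme that makes deoxynucleotides, rose by 3.11 (SE 0.47, adjusted p = 8.14e-05). MCM10 (NM_182751), which helps to start the fork, was well above background on no array of D30 + DMSO and was at least 6.19-fold higher.

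The 6 subunits of the MCM2-7 helicase were each called higher, in the order MCM5 (2.45), MCM2 (2.15), MCM4 (1.76), MCM7 (1.48), MCM3 (1.46) and MCM6 (1.29), with SE between 0.17 and 0.29. The differences between neighbours in this order were not tested. MCM7 (NM_182776) was at 3.19, 2.92, 3.13 and 3.38 with DMSO and 4.23, 4.73, 4.87 and 4.72 after its removal, and both of its probes were called. PCNA, the clamp of the DNA polymerases, rose by 1.19. Genes of the list that were not called include CDC6 (0.78, adjusted p = 0.139), a loader of the helicase. Array means of the replication list lay between 1.14 and 1.66 at D34 ± DMSO and between -0.19 and 0.12 at D30 + DMSO.

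The regulators of the cycle were less uniform. Of 40 tested genes of cyclins, CDK inhibitors, E2F and RB factors, 18 were called higher and 0 lower by limma, with a median log2 difference of 0.67. CCNA2 (NM_001237), the cyclin of S phase and early mitosis, was at -3.94, -2.99, -2.90 and -2.65 on the arrays of D30 + DMSO and at -0.33, -0.56, -0.63 and 0.51 on those of D34 ± DMSO. The groups did not overlap (log2 difference 2.87, SE 0.38, adjusted p = 2.16e-05, 7.3-fold), and CCNA2 at D30 − DMSO, -3.17 ± 0.59, was close to its level with DMSO. E2F1 (NM_005225) rose by 2.96 (SE 0.30, adjusted p = 8.53e-07), E2F2 by 4.01, and the repressors E2F7 and E2F8 by 3.38 and 4.06. MYBL1, a MYB factor, rose by 3.18, FOXM1 by 2.78 and CCNE2 by 1.64.

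CCND1 (NM_053056), a cyclin of the response to growth factors, was not called. It stood at -1.01, -1.15, -1.24 and 0.18 with DMSO and at -0.89, -1.02, -1.56 and 0.15 after removal, and these ranges overlap, with replicate 4 the highest array of each condition (log2 difference -0.03, SE 0.35, adjusted p = 0.975). E2F4 (NM_001950), an E2F factor of resting cells, was at -2.18 and -2.09 (log2 difference 0.10, SE 0.44, adjusted p = 0.925). The differences were -0.19 for CCND3, 0.51 for CDK4, 0.15 for CDK6, -0.24 for the CDK inhibitor CDKN1A and -0.11 for CDKN1B, none of them called.

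Genes of DNA repair were also higher. Of 42 tested genes of DNA repair and the damage checkpoint, 25 were called higher and 0 lower by limma, with a median log2 difference of 1.38. The helicase BLM (NM_000057) rose by 3.36 (SE 0.30, adjusted p = 2.1e-07), RAD54L, which acts in homologous recombination, by 3.45, and the nuclease EXO1 by 3.33. BRCA2 (NM_000059), which acts in the repair of broken DNA, was well above background on no array of D30 + DMSO and was at least 5.1-fold higher. Its probe passed the filter only through D34 ± DMSO, so its 4 of 4 arrays there were required by the filter and are no result. UHRF1 (NM_013282), which keeps DNA methylation through replication, was at -4.76, -4.61, -4.95 and -3.88 with DMSO and at -1.49, -0.16, -0.14 and 0.08 after removal. On this probe the log2 difference was 4.12 (SE 0.47, adjusted p = 4.15e-06). The second UHRF1 probe was called as well, with a smaller log2 difference of 1.70. EZH2, the methyltransferase of histone H3, rose by 1.98. UHRF1 and EZH2 were the members called higher of 42 tested enzymes of histone and DNA methylation, and EZH1 was called lower. These shares, 4.76% and 2.38%, are close to the 4.91% and 2.09% of all genes tested. Of 29 tested enzymes of histone acetylation, 0 were called higher and 1 lower (3.45%) by limma, the deacetylase SIRT1. The calls of EZH1 and SIRT1, close to 2-fold, were lost when any 1 of 5 and any 1 of 3 of the 8 arrays was left out, with log2 differences of up to -0.93 and -0.98.

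Of 59 tested clustered histone genes, a list added after values were seen, 13 were called higher and 1 lower, H2BC21 (-2.14), by limma. H1-5 (NM_005322) rose by 4.55, H3C15 (NM_001005464) by 4.33, H2AC16 by 3.93 and H2AC13 by 3.92. Copies of these genes are near-identical, so a probe can report more than 1 of them.

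**Figure D2:**
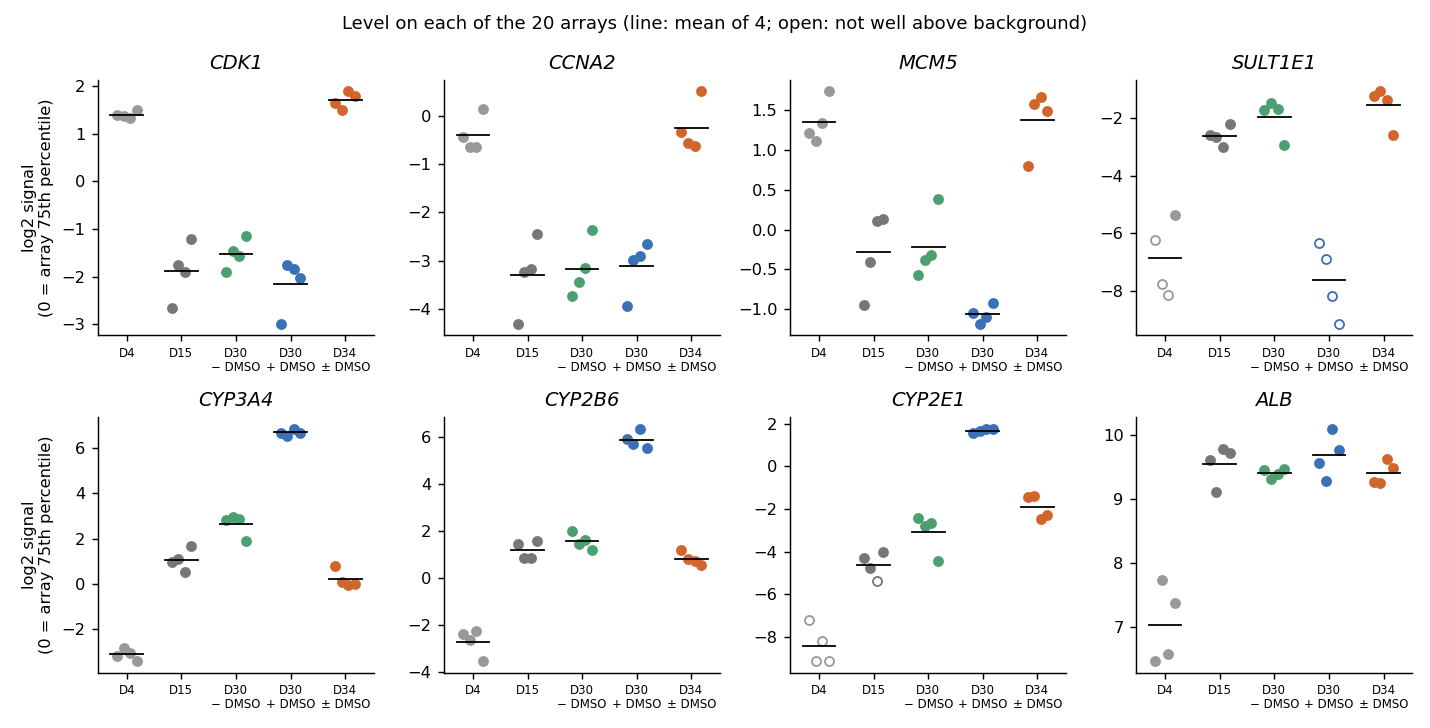
Level on each of the 20 arrays (vertical axis, log2, 0 is the 75th percentile of the array) for 8 genes, by condition along the horizontal axis. Points are replicate arrays 1 to 4 from left to right, bars are the means of 4 arrays, and open points mark arrays on which the probe was not well above background. CDK1, CCNA2, MCM5 and SULT1E1 stand higher at D34 ± DMSO than at D30 + DMSO on all arrays, CYP3A4, CYP2B6 and CYP2E1 stand lower on all arrays, and ALB overlaps.

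Enzymes of drug metabolism held the largest falls. Of 42 tested cytochrome P450 genes, limma called 12 lower (28.6%, against 2.09% of all genes tested) and 3 higher (7.14%, against 4.91%). The median log2 difference of this list was -0.66. CYP3A4 (NM_017460), the main drug-oxidising enzyme of the liver, stood at 6.70, 6.57, 6.88 and 6.70 on the arrays of D30 + DMSO and at 0.78, 0.05, -0.05 and -0.01 on those of D34 ± DMSO. This fall of 91.7-fold was the largest among genes with a symbol (log2 difference -6.52, SE 0.26, adjusted p = 1.95e-11), and it was -6.27 on slide 3 and -6.80 on slide 4. In cells never given DMSO, the 4 arrays of D30 − DMSO were at 2.83, 2.95, 2.89 and 1.89, all above the arrays after removal, with no test of this difference. CYP3A7 (NM_000765), the form of the fetal liver, was at 6.44, 6.29, 6.56 and 6.57 with DMSO and 3.13, 4.32, 3.01 and 2.17 after removal, again with no overlap (log2 difference -3.31, SE 0.43, adjusted p = 1.63e-05), and both of its probes were called. CYP3A5 differed by -1.48 and was not called (adjusted p = 0.0447).

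The windows of CYP3A4, CYP3A7 and SULT1E1 are shown because these genes give the largest fall, the fall of a close relative and one of the largest rises. The lines hold the 200 bases before the start in RefSeq (GRCh38.p14), at chr7:99784185-99784384 for CYP3A4, chr7:99735197-99735396 for CYP3A7 and chr4:69860146-69860345 for SULT1E1, all on the minus strand, and the capitals mark the TATA box TATAAA and, in CYP3A4, the everted repeat ER6 that binds PXR.
CYP3A4: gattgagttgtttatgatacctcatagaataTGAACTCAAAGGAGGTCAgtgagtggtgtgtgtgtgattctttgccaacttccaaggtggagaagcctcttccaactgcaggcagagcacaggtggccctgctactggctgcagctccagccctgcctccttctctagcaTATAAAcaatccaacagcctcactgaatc
CYP3A7: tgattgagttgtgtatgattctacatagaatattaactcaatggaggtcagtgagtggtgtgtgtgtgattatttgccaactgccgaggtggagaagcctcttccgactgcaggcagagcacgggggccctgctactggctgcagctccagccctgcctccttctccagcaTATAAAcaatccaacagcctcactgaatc
SULT1E1: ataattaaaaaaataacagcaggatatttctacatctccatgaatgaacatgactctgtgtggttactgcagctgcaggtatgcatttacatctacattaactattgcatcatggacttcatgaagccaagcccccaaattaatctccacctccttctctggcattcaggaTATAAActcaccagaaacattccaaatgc

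The exact letters searched for ER6 occur in the window of CYP3A4 and not in that of CYP3A7, and in 2 of the 27305 windows in all. The CYP3A7 window holds a similar stretch at nearly the same place, with a base of the searched half-site changed. Altered forms of the repeat were not searched, so the lack of a match does not show that CYP3A7 lacks such a repeat. A TATAAA box lay within 250 bases before 8 of the 11 P450 genes called lower that have a window, against 6.70% of tested genes and 11.1% of all windows. It lay before 8.43% of all genes called lower and 9.71% of those called higher. P450 genes that were not called were not counted, so the box cannot be tied to the fall. The direct repeats DR1 and DR4 of the same half-site were found before 0 of the 261 genes called lower that have a window and before 0 of the 690 called higher, and they occur in 5 and 4 of all windows.

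CYP2B6 (NM_000767), a target of CAR, was at 5.91, 5.71, 6.35 and 5.55 on the arrays of D30 + DMSO and at 1.20, 0.80, 0.70 and 0.56 on those of D34 ± DMSO (log2 difference -5.07, SE 0.27, adjusted p = 1.24e-09). The fall was 33.5-fold on this probe, with no overlap, while the second CYP2B6 probe was not called, with a log2 difference of -0.61. CYP2A7 (NM_000764) fell by 5.08 and CYP2A13 (NM_000766) by 4.09 in log2 units (SE 0.45 and 0.32, adjusted p = 2.27e-07 and 5.99e-08). The CYP2A genes are so alike that their probes may report each other. CYP2E1 (NM_000773), which oxidises ethanol, was at 1.54, 1.65, 1.75 and 1.77 with DMSO and -1.46, -1.40, -2.48 and -2.29 after removal. Its arrays with DMSO all lay above those without (log2 difference -3.58, SE 0.45, adjusted p = 1.16e-05), and cells at D30 − DMSO were at -3.08 ± 0.91.

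CYP1A2, an enzyme induced through the aryl hydrocarbon receptor, fell by 1.57 on the log2 scale, and the fatty acid hydroxylases CYP4F2 and CYP4F3 fell by 2.37 and 1.96 on the log2 scale. CYP2C18 and CYP2C8 were not called, with differences of 0.10 (adjusted p = 0.931) and -2.08 (adjusted p = 0.0426). CYP2D6, CYP1A1 and the bile acid enzyme CYP7A1 were not called either. The P450 genes called higher were CYP19A1 (2.45), the aromatase, and CYP4A11 (1.80) and CYP4A22 (1.36), which hydroxylate fatty acids.

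Of 52 tested genes of other phase I enzymes, limma called 9 lower (17.3%, against 2.09% of all genes tested) and 2 higher (3.85%, against 4.91%). The median log2 difference of this list was -0.73. ALDH2 (NM_000690), the mitochondrial aldehyde dehydrogenase, fell from 5.08 ± 0.26 to 3.40 ± 0.18 (SD, n = 4; log2 difference -1.68, SE 0.16, adjusted p = 6.28e-07). ALDH1L1, an enzyme of folate metabolism, fell by 1.85, and DHRS2 by 2.17 on the log2 scale. EPHX1, the microsomal epoxide hydrolase, was called lower (-1.35). PON1 (NM_000446), a serum esterase, was at 2.11 and 2.13 and was not called (log2 difference 0.03, SE 0.30, adjusted p = 0.971). ALDH1A3, a retinal dehydrogenase, was well above background on no array with DMSO and on 1 of 4 after removal, at least 1.73-fold higher.

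The conjugating enzymes moved in both directions. Of 41 tested, limma called 6 lower (14.6%, against 2.09% of all genes tested) and 4 higher (9.76%, against 4.91%). The median log2 difference of this list was -0.41. SULT1E1 (NM_005420), which sulfates estrogens, was well above background on no array of D30 + DMSO, at -6.32, -6.90, -8.19 and -9.14, and on all arrays of D34 ± DMSO, at -1.23, -1.07, -1.37 and -2.57. It was at least 25.8-fold higher after removal (adjusted p = 8.78e-07), and the arrays of D30 − DMSO, at -1.71, -1.47, -1.68 and -2.95, covered a similar range. SULT1B1 (NM_014465), a sulfotransferase for thyroid hormones, rose by 3.21 (SE 0.29, adjusted p = 3.33e-07), and NAT8 by 1.46. The glucuronosyltransferase UGT1A6 was called lower (-1.24), with the limit that genes of the UGT1A locus share exons.

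**Figure D3:**
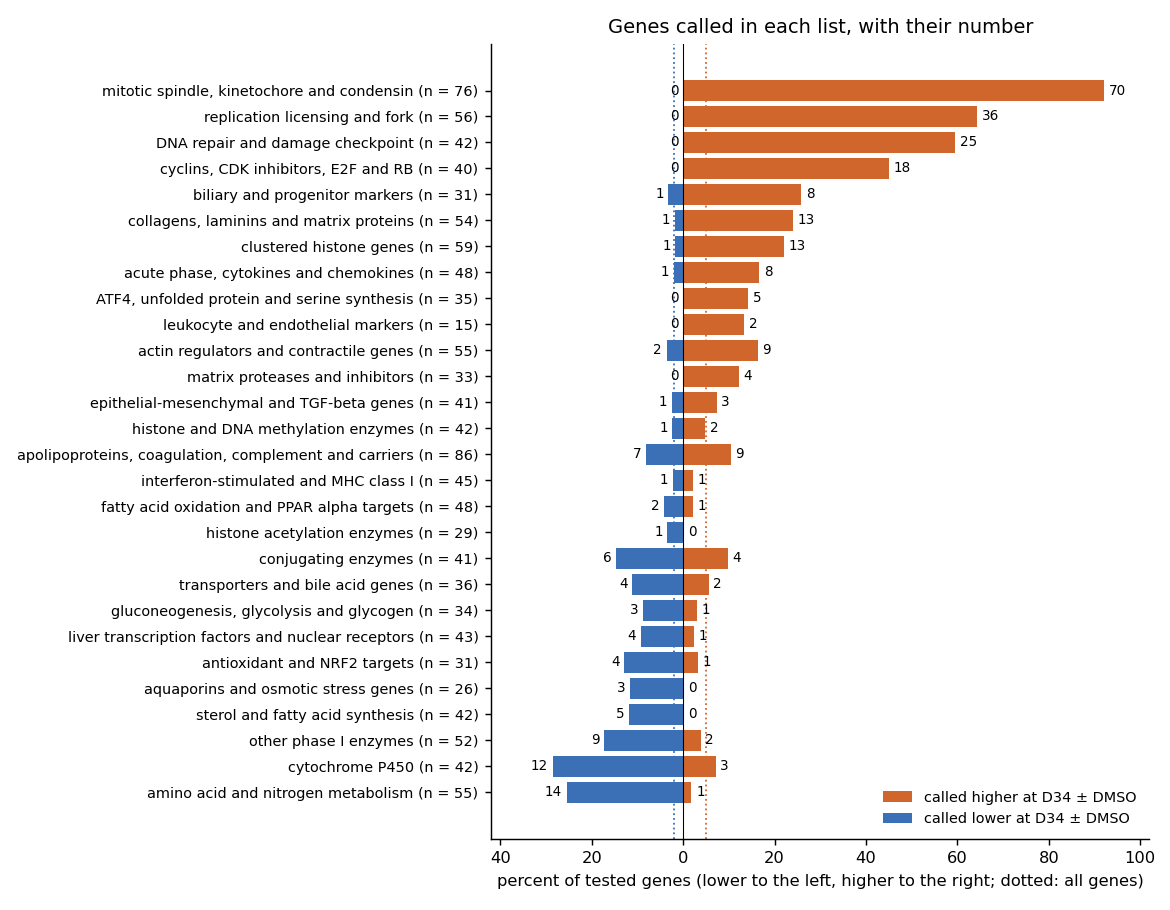
Share of the tested genes of each list that limma called higher (orange, to the right) or lower (blue, to the left) at D34 ± DMSO than at D30 + DMSO, in percent, with the number of genes at the end of each bar and the dotted lines at the shares of all genes tested. The 3 cell cycle lists and the DNA repair list reach farthest to the right (70 of 76 for mitosis), and amino acid metabolism and P450 enzymes farthest to the left (14 of 55 and 12 of 42).

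Among the nuclear receptors and liver transcription factors, limma called 4 of 43 tested genes lower (9.30%, against 2.09% of all genes tested). It called 1 higher (2.33%, against 4.91%), and the median log2 difference was -0.24. NR0B2 (NM_021969), the small heterodimer partner that represses bile acid synthesis, stood at 0.89, 0.54, 1.28 and 0.02 with DMSO and at -1.51, -2.14, -1.84 and -2.99 after removal. The groups did not overlap (log2 difference -2.80, SE 0.33, adjusted p = 5.28e-06). NR1I3 (NM_001077482), the gene of CAR, fell by 2.04 in log2 units (SE 0.40 and adjusted p = 0.0011), and without D30 + DMSO replicate 3 the adjusted p was 0.00549 and the call was lost. NR1I2, the gene of PXR, differed by -0.51 (adjusted p = 0.195) and was not called, nor was AHR (-0.49, adjusted p = 0.0137). VDR, the vitamin D receptor, rose by 1.12. NR1H4 (NM_005123), the bile acid receptor FXR, was at 1.44 and 1.28 (log2 difference -0.15, SE 0.28, adjusted p = 0.79), and HNF4A at -3.79 and -3.92 (log2 difference -0.13, SE 0.23, adjusted p = 0.794).

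Genes of amino acid and nitrogen metabolism were lower in a larger share than any list besides the P450 enzymes. Of 55 tested, limma called 14 lower (25.5%, against 2.09% of all genes tested) and 1 higher (1.82%, against 4.91%). The median log2 difference of this list was -0.56. GNMT (NM_018960), the glycine methyltransferase that disposes of methyl groups, was at 2.54, 2.25, 2.64 and 2.05 on the arrays of D30 + DMSO and at -1.23, -2.38, -1.96 and -2.83 on those of D34 ± DMSO. All arrays after removal lay below all arrays with DMSO, by 22.2-fold on the means (log2 difference -4.47, SE 0.29, adjusted p = 9.52e-09). SDS (NM_006843), the serine dehydratase, fell by 3.33, and GLS2 (NM_013267), the liver glutaminase, by 3.14 in log2 units (SE 0.31 and 0.31, adjusted p = 3.39e-07 and 7.08e-07). The called genes also include the aminotransferases AGXT (-1.90) and GPT (-1.86), the methionine cycle gene MAT1A (-1.22) and CTH (-1.12), which makes cysteine. HAL, the histidine ammonia-lyase, rose by 2.49, from a level at which 2 of 4 arrays were well above background. The urea cycle genes CPS1 (1.61, adjusted p = 0.0267) and ARG1 (0.26, adjusted p = 0.802) were not called.

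In glucose metabolism, 3 of 34 tested genes were called lower (8.82%, against 2.09% of all genes tested) and 1 higher (2.94%, against 4.91%). G6PC1 (NM_000151), the glucose-6-phosphatase that releases glucose, stood at 2.50, 2.60, 2.70 and 1.89 with DMSO and -0.22, 0.61, 0.48 and -1.18 after removal, with no overlap (log2 difference -2.50, SE 0.37, adjusted p = 6.07e-05). Its transporter partner SLC37A4 fell by 1.22, and PCK2, the mitochondrial PEP carboxykinase, by 2.14 on the log2 scale, with both PCK2 probes called. PFKP, a phosphofructokinase of non-hepatic tissues, rose by 1.48.

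In lipid metabolism, limma called 5 of 42 tested genes of sterol and fatty acid synthesis lower (11.9%, against 2.09% of all genes tested). It called 0 higher, and the median log2 difference was -0.34. DGAT2, which makes triglycerides, fell by 1.99, and the sterol enzyme TM7SF2 by 1.94 on the log2 scale. Of 48 genes of fatty acid oxidation and PPAR alpha targets, 2 were called lower (4.17%, against 2.09% of all genes tested) and 1 higher (2.08%, against 4.91%). CAT, the peroxisomal catalase, fell by 1.46 on the log2 scale. ACAA1 (NM_001607), the peroxisomal thiolase, fell by 1.19 (SE 0.19, adjusted p = 0.000184), and without D34 ± DMSO replicate 4 its difference was -0.98, under the 2-fold limit. VNN1, a PPAR alpha target, rose by 2.84.

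Of 36 tested transporters and bile acid genes, 4 were called lower (11.1%, against 2.09% of all genes tested) and 2 higher (5.56%, against 4.91%). SLC27A5, the bile acid ligase, fell by 1.99 on the log2 scale. SLC10A1, the bile acid uptake transporter NTCP, was called lower (-1.31). Of 26 tested aquaporins and osmotic stress genes, 3 were called lower and 0 higher by limma. The water and glycerol channel AQP9 fell by 1.95, and AQP11 by 1.62 on the log2 scale. Of 31 tested antioxidant genes and NRF2 targets, 4 were called lower (12.9%, against 2.09%) and 1 higher (3.23%, against 4.91%). FTL, the light chain of ferritin, and GCLC, of glutathione synthesis, fell by 1.28 and 1.35 on the log2 scale.

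Of 35 tested genes of ATF4, the unfolded protein response and serine synthesis, 5 were called higher and 0 lower by limma. The share called higher was 14.3%, against 4.91% of all genes tested. The amino acid transporter SLC7A1 rose by 2.12, the disulfide isomerase PDIA4 by 1.12 and PSAT1, of serine synthesis, by 1.02.

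Plasma protein genes moved in both directions. Of 86 tested genes of apolipoproteins, coagulation, complement and carriers, 9 were called higher (10.5%, against 4.91% of all genes tested), 7 lower (8.14%, against 2.09%) and 70 neither, and the median log2 difference was -0.02. A gene counted as not affected if it changed over the 5 conditions (over 3-fold, with limma's F-test below 0.001 after the Bonferroni correction, which 1180 genes or 5.31% of those tested passed), had a coefficient of variation under 30% with DMSO and after its removal, and differed less than 1.3-fold between them. This held for 122 of the 1180 genes (10.3%), and 17 of the 122 were in the plasma protein list. The number of plasma protein genes among the 1180 was not counted, so the 17 cannot be set against the 10.3%. ALB (NM_000477) stood at 9.57, 9.28, 10.10 and 9.77 with DMSO and at 9.27, 9.26, 9.63 and 9.49 after removal, which overlap (log2 difference -0.27, SE 0.24, adjusted p = 0.53). APOE (NM_000041) differed by -0.01 (SE 0.19), F2 (NM_000506), prothrombin, by -0.07 (SE 0.29) and APOH (NM_000042) by -0.15 (SE 0.23). Of the 1180 genes, 489 were called higher and 158 lower.

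Of the plasma protein genes called, AHSG (NM_001622), the gene of fetuin-A, was at 0.54, 0.50, -0.11 and -0.43 with DMSO and 3.38, 2.95, 3.44 and 3.15 after removal. It was higher on all arrays (8.6-fold, adjusted p = 3.31e-08). ITIH3 (NM_002217), an inhibitor heavy chain of plasma, rose by 3.09, and LECT2 was at least 2.33-fold higher, with 0 of 4 arrays well above background with DMSO and 2 of 4 after removal. APOA4 (NM_000482), an apolipoprotein of triglyceride-rich particles, fell from -1.05 ± 0.52 to -4.04 ± 0.31 (SD, n = 4; log2 difference -2.99, SE 0.36, adjusted p = 7.45e-06). APOA5 and APOC3 were also called lower, with log2 differences of -2.20 and -1.63. APOA1 (NM_000039), the main protein of HDL, was at 7.65, 7.45, 7.91 and 8.07 with DMSO and 6.34, 5.99, 6.57 and 6.54 after removal. Its groups did not overlap, but at -1.41 (SE 0.37, adjusted p = 0.00924) it missed the threshold.

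Acute phase and inflammation genes were called higher in 8 of 48 tested (16.7%, against 4.91% of all genes tested). In this list, 1 was called lower (2.08%, against 2.09%), and the median log2 difference was 0.38. CRP (NM_000567), the C-reactive protein, stood at -3.05, -3.36, -4.85 and -6.52 with DMSO and at -0.23, -0.27, -0.67 and -0.78 after removal. The spread among the arrays with DMSO was wide but did not reach the other group (log2 difference 3.96, SE 0.52, adjusted p = 1.75e-05). The second CRP probe was called as well, with a log2 difference of 2.85. LBP, the binding protein of lipopolysaccharide, rose by 2.25, the cytokine LIF by 2.05 and the adhesion molecule ICAM1 by 1.53. SAA1 and HP, major acute phase proteins, were not called (0.38 and -0.11). IL6R, the receptor of interleukin-6, was the member called lower (-1.39). Of 45 tested interferon-stimulated and MHC class I genes, 1 was called higher, OAS3 (1.31), and 1 lower, IFIT2 (-1.03). Each is 2.22% of the list, against 4.91% called higher and 2.09% called lower of all genes tested. The call of IFIT2 was lost when any 1 of 5 of the 8 arrays was left out (adjusted p of up to 0.00773).

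Genes of the matrix and the cytoskeleton rose in part. Of 54 tested genes of collagens, laminins and matrix proteins, limma called 13 higher and 1 lower, the laminin chain LAMA3 (-1.08). These are 24.1% and 1.85%, against 4.91% and 2.09% of all genes tested. The median log2 difference of this list was 0.62. DCN (NM_001920), the proteoglycan decorin, was at -0.65, 0.28, 0.06 and -0.18 with DMSO and at 2.22, 2.72, 2.85 and 3.57 after removal, and both probes were called (log2 difference 2.97, SE 0.33, adjusted p = 2.53e-06). These levels after removal lie beside 2.85 ± 0.55 at D30 − DMSO. POSTN (NM_006475), periostin, rose by 4.29 (SE 0.43, adjusted p = 9.67e-07), TNC, tenascin C, by 3.48, and OMD, osteomodulin, by 4.15, each from a level at which 1 or 2 of 4 arrays were well above background. COL4A1 and COL4A2, the chains of basement membrane collagen, were among the genes counted as not affected.

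The protease PAPPA, which cuts binding proteins of insulin-like growth factors, rose by 2.60, ADAMTS9 by 1.81 and the urokinase receptor PLAUR by 2.35. They are in a list of 33 tested proteases and inhibitors, of which 4 were called higher (12.1%, against 4.91% of all genes tested) and 0 lower. Of 55 tested actin genes, 9 were called higher (16.4%, against 4.91%) and 2 lower (3.64%, against 2.09%). DIAPH3, a formin of the actin ring of dividing cells, rose by 3.26, and FLNA, filamin A, by 2.76, the latter on 1 of its 2 probes. In the list of epithelial-mesenchymal and TGF-beta genes, 3 of 41 were called higher, among them CLDN2 (2.11) and TGFB2 (2.04), and 1 lower, ID2 (-1.38). The shares were 7.32% and 2.44%, against 4.91% and 2.09% of all genes tested. The median log2 difference of this list was -0.01, with 20 genes above 0 and 21 below.

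Biliary and progenitor markers gave 8 genes called higher and 1 lower of 31 tested, with a median log2 difference of 0.18. These are 25.8% and 3.23%, against 4.91% and 2.09% of all genes tested. AGR2 (NM_006408), a secretory protein of mucous epithelia, stood at -4.87, -4.75, -5.64 and -6.04 with DMSO and at -0.20, 0.72, 1.15 and 0.55 after removal. It had one of the largest rises (log2 difference 5.88, SE 0.32, adjusted p = 1.24e-09), with 2 of 4 arrays well above background with DMSO. ABCA12, a lipid transporter of epithelia, rose by 2.73, and SPP1, osteopontin, by 2.22. SOX9 (NM_000346), a transcription factor of bile duct cells, went the other way, from -2.08, -2.00, -1.50 and -1.55 with DMSO to -3.66, -3.62, -4.44 and -3.79 after removal, with no overlap (log2 difference -2.09, SE 0.24, adjusted p = 4.94e-06). KRT7 and KRT19 were not called, with differences of -0.31 and 0.32.

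**Figure D4:**
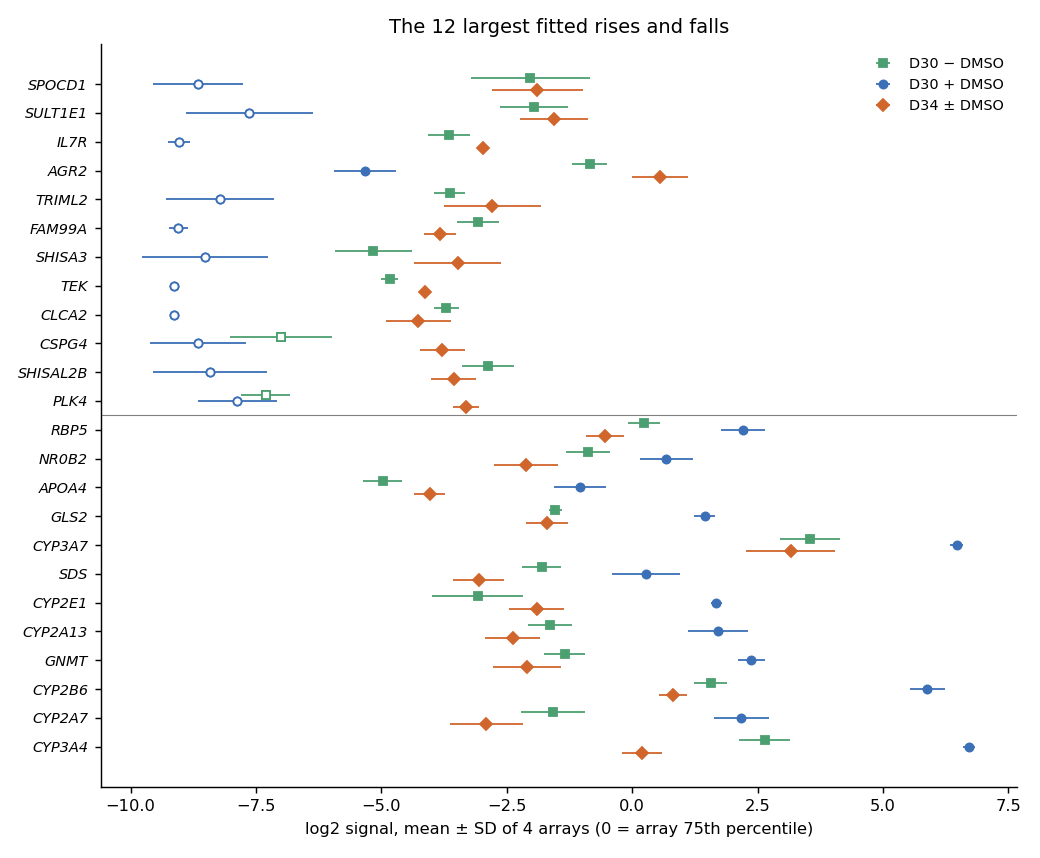
Level (horizontal axis, log2, 0 is the 75th percentile of the array) of called genes with a symbol, namely the 12 that rose most and the 12 that fell most in the fit, as mean ± SD of 4 arrays at D30 − DMSO (green squares), D30 + DMSO (blue circles) and D34 ± DMSO (orange diamonds). Open symbols mark conditions in which no array was well above background, which holds for 11 of the 12 rises at D30 + DMSO.

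Apart from AGR2, the 12 largest fitted rises were of genes well above background on no array with DMSO, so their size is a bound. SPOCD1 (NM_144569), a gene known from the silencing of transposons in the germline, was at -9.14, -9.14, -9.03 and -7.30 with DMSO, on 0 of 4 arrays well above background, and at -2.85, -2.07, -1.97 and -0.67 after removal, on 4 of 4. It was at least 21.5-fold higher (adjusted p = 8.98e-08), and the level at D30 − DMSO was -2.03 ± 1.18. IL7R (NM_002185), the receptor of interleukin-7, was at least 10.1-fold higher, with arrays at -3.04, -3.04, -2.81 and -3.02 after removal. TRIML2 was called as well, SHISA3 was at least 7.02-fold, SHISAL2B at least 6.75-fold, FAM99A at least 5.6-fold, CSPG4 at least 5.76-fold, TEK at least 4.53-fold and CLCA2 at least 4.15-fold higher, each on 0 of 4 arrays with DMSO and 4 of 4 after removal. TEK, which encodes a receptor of angiopoietins, passed the filter only through D34 ± DMSO, so its 4 of 4 arrays there were required by the filter. CSPG4 was well above background on 0 of 4 arrays at D30 − DMSO too, and SHISA3 on 1 of 4. RBP5, a retinol-binding protein, was the remaining gene of the largest falls (-2.75, SE 0.26, adjusted p = 4.79e-07).

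**Figure D5:**
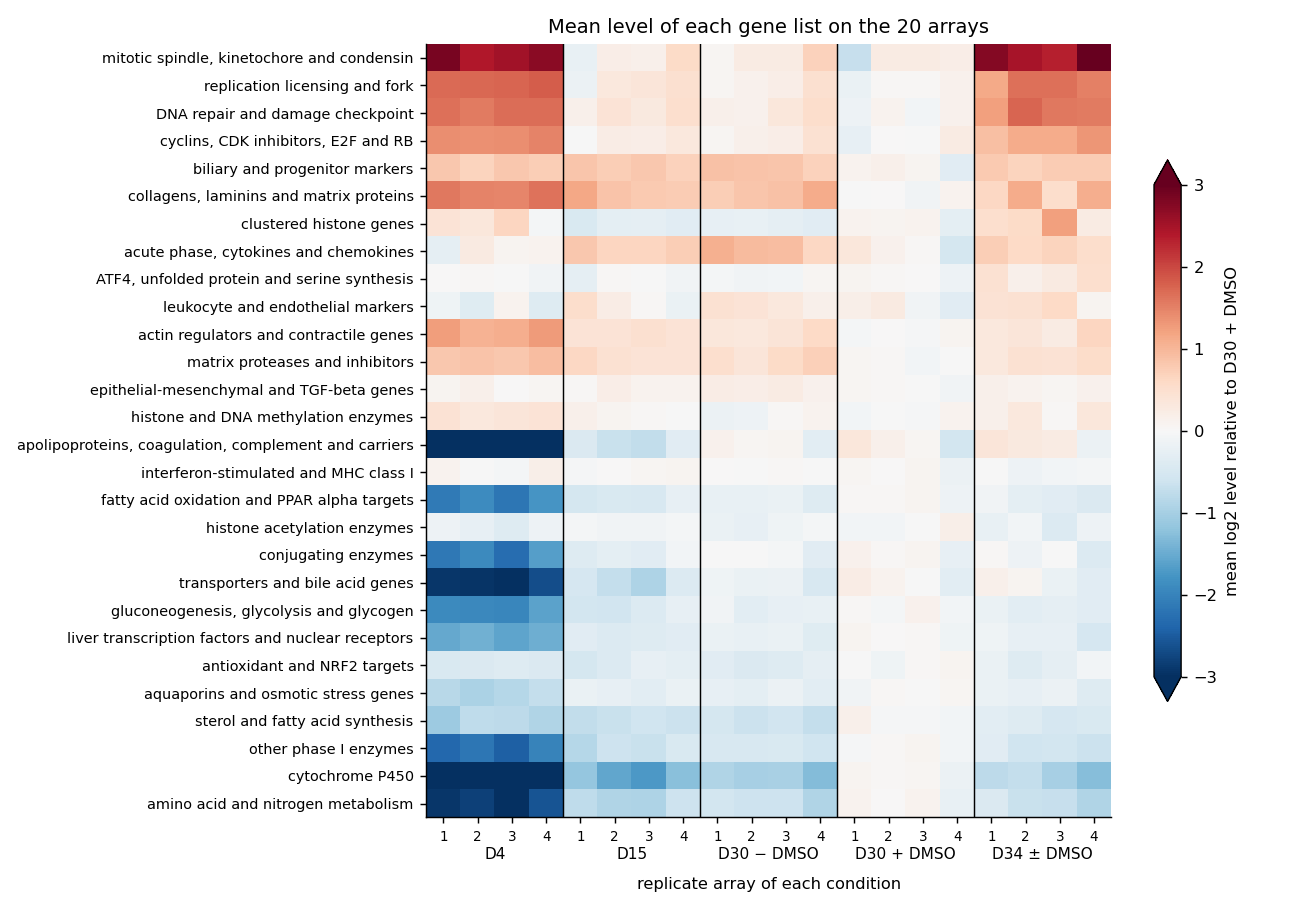
Mean log2 level of the tested genes of each list on each of the 20 arrays, relative to the mean over the 4 arrays of D30 + DMSO (color scale from -3 to 3, with lower or higher means in the end colors). The mitotic list lies between 2.34 and 3.35 on the arrays of D34 ± DMSO and between 2.40 and 2.85 on those of D4, while the P450 list lies between -1.29 and -0.70 at D34 ± DMSO and between -1.31 and -0.91 at D30 − DMSO.

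Beside the cells never given DMSO, the P450 list lay at a similar mean after removal and the mitotic list at a higher one. The P450 list had a mean of -0.94 at D34 ± DMSO and -1.05 at D30 − DMSO, both relative to D30 + DMSO, and the mitotic list 2.72 and 0.31. Single genes stood apart from this in both directions. CYP2E1 was at -1.91 after removal and -3.08 at D30 − DMSO, and CYP3A4 at 0.19 and 2.64. G6PC1, which is in neither list, was at -0.08 and 0.67. D30 − DMSO and D34 ± DMSO were not tested against each other here, and both were set against the same D30 + DMSO arrays.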

How the data were processed

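RNA of HepaRG cells was hybridised to one-color Agilent arrays, 4 per condition in 5 conditions. The authors deposited, for each array, the intensity of every spot as written by Agilent Feature Extraction (version 10.7.3.1 per the processing notes and 10.7.1.1 per the file headers), with background already subtracted. They also deposited a matrix of log2 values, whose column medians run from -0.204 to 0.171. After 1 baseline per probe was removed, it differed from the values used here by a median of 3.56e-07, with array shifts of up to 0.113, so each probe is centred on a baseline that is not stated. The matrix was used as an alternative.

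Control spots and outlier-flagged spots were left out, unless all spots of a probe were flagged. Spots of a probe were averaged, scaled to the 75th percentile of the array, set to at least 1 in the units of the scanner (-9.14 after scaling, where values have no order) and taken to log2. The 75th percentile lay between 406.6 and 765.7, and 62.9% to 73.6% of spots were well above background on the 8 arrays compared. Of 42405 probes, 24826 have a current symbol and the other 17579 go by their accession. Of all probes, 26538 were kept, and 1 probe per gene (the highest mean) gave 22221 genes. Symbols of the array design can be old, and a probe may report close paralogs. limma 3.58.1 in R 4.3.3 was fitted to 20 arrays with a mean per condition, and its test was first tried on simulated data. With 4 arrays against 4, their number limits the precision.

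Genes were named by rule: the 12 largest rises and falls with a symbol, up to 4 called genes of each list, the subunits of MCM2-7, and genes the study names for DMSO removal. A few genes that this rule names are not reported here. The members and lists were chosen with earlier results of these data known. Other genes named in the text as members of a list, the clustered histone list, the S100, keratin and kinesin families, and SOX9, APOA1, SPINK1, H19 and PEG10 were chosen after values were seen. Promoter windows were matched by symbol. Alternatives were quantile and normexp normalisation, the deposited matrix, other filters, floors and thresholds, a fit on the 8 arrays alone, blocks for slide, session and replicate number, the methods' t-test, and leaving out arrays.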

Additional observations from a re-analysis of the deposited data

Results flagged for a closer look

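Of 286 groups of 4 arrays (each named gene reported here at D30 + DMSO and at D34 ± DMSO), 24 held 1 array whose gap to the nearest other array took a larger part of the range of the group than Dixon's critical value for 4 arrays. Chance flags about 1 in 20 groups. At D30 + DMSO, 7 of these genes had other arrays at or next to the floor of -9.14, where values have no order. The gap was 1 of the range for IL7R (replicate 2 at -8.70), FAM99A (replicate 1 at -8.77), SHISA3 (replicate 2 at -6.63) and CSPG4 (replicate 2 at -7.21). It was 0.996 for CNN1 (replicate 2 at -6.25), 0.983 for ALDH1A3 (replicate 2 at -7.04) and 0.942 for SPOCD1 (replicate 4 at -7.30).

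Replicate 4 of D30 + DMSO stood apart in several other genes. It was above the other arrays for CCND1 (0.18, gap 0.842 of the range), E2F4 (-1.10, gap 0.841), ADAMTS9 (-1.36, gap 0.894) and SLC7A1 (-3.30, gap 0.858). It was below them for F2 (5.32 against 6.25 to 6.27, gap 0.979), SULT1B1 (-4.59, gap 0.832), HAL (-6.86, gap 0.853) and IFIT2 (0.22, gap 0.847). Replicate 3 of D30 + DMSO stood apart for CAT (4.07, gap 0.958).

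At D34 ± DMSO, replicate 1 stood apart for CYP3A4 (0.78 against -0.05 to 0.05, gap 0.874), PCK2 (1.80, gap 0.858) and UHRF1 (-1.49 against -0.16 to 0.08, gap 0.843). Replicate 4 did so for NR1H4 (0.64, gap 0.837), FSCN1 (-4.83, gap 0.846) and H19 (0.70 against -0.22 to -0.18, gap 0.955). PFKP was highest on replicate 2 (1.00, gap 0.963), and IL7R on replicate 3 (-2.81, gap 0.92).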

How the results depend on the processing

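The counts are those of genes called higher after DMSO removal, genes called lower after DMSO removal, genes not affected by DMSO removal, cell cycle genes called higher after DMSO removal and xenobiotic-metabolising genes called lower after DMSO removal. Of 116 comparisons of a main count with its value under an alternative, 105 stayed within 1.5 times and 11 did not, and no result reversed. For counts of single lists, 244 comparisons were marked as moved and 1100 as the same. Normexp background correction gave 599 genes higher and 267 lower. With probes required to be well above background on all arrays, 724 genes were higher. The methods' t-test, adjusted by Benjamini-Hochberg, called 341 genes higher and 149 lower, 53 genes of the cell cycle lists higher and 9 of the xenobiotic lists lower, and without adjustment 955 and 452. With no limit on the fold change, 1171 genes were lower. With changed genes taken at an adjusted p below 0.01 and 2-fold, 228 were not affected. Without the arrays of slide 4, an alternative chosen after seeing the data, 239 genes were lower and 13 of the xenobiotic lists. The causes were not tested. Leaving out 1 array at a time gave 968 to 1051 genes higher, 346 to 451 lower, 91 to 142 not affected, 122 to 126 higher in the cell cycle lists and 21 to 25 lower in the xenobiotic lists. Same-numbered arrays of both conditions deviated together with r of 0.32, -0.0946, 0.0499 and 0.695, and the first and last of these pairs share a slide, so the numbers were not taken to pair the samples. With the replicate number as a block, 1221 genes were higher and 540 lower, and 0 of the 136 called named genes lost the call. Normexp ended the call of 31 of them, the t-test of 75, a fit on the 8 arrays alone of 26 (751 genes higher and 322 lower) and leaving out an array of 16. Probes close to the background, as for the largest rises, allow only bounds.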

Other observations

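A few gene families, chosen after values were seen, are given as values. Over all genes tested, 4.91% were called higher and 2.09% lower. Of 14 tested S100 genes, which encode calcium-binding proteins, limma called 8 higher and 0 lower at D34 ± DMSO than at D30 + DMSO, with a median log2 difference of 1.45. S100A2 (NM_005978) stood at 1.28, 2.24, 1.55 and -0.12 with DMSO and at 4.89, 4.64, 5.31 and 5.64 after removal (log2 difference 3.88, SE 0.35, adjusted p = 3.08e-07). S100A9 rose by 1.86, S100P by 3.01, S100A3 by 3.98 and S100A4 by 2.60. Of 28 tested keratins, 6 were called higher and 0 lower, with a median of 0.24. KRT6A rose by 4.25, and KRT17, well above background on 0 of 4 arrays with DMSO, was at least 3.19-fold higher, and probes of close keratins may report each other. Of 27 tested kinesins, the motor proteins of microtubules, 12 were called higher and 1 lower, with a median of 0.36. KIF14, which acts in cell division, rose by 3.36 and KIF18A by 3.15, while KIF3A, of transport in cilia, fell by 1.18 on the log2 scale.

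SPINK1 (NM_003122), a trypsin inhibitor, stood at 3.93, 4.20, 2.96 and 1.64 with DMSO and at 7.30, 7.25, 7.84 and 7.52 after removal (log2 difference 4.29, SE 0.41, adjusted p = 5.07e-07). H19 (NR_002196), an imprinted non-coding RNA, rose by 3.27 (SE 0.40, adjusted p = 8.04e-06). PEG10 (NM_001040152), an imprinted gene as well, went from 4.01, 3.87, 3.99 and 3.97 to 1.63, 1.39, 0.91 and 1.79 (log2 difference -2.53, SE 0.20, adjusted p = 5.99e-08). SELENBP1, which binds selenium, differed by -2.14 (SE 0.19, adjusted p = 2.1e-07), and SFN, stratifin, by 2.96 (SE 0.21, adjusted p = 2.66e-08).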
